A study of Mus musculus with 37 samples.

Results

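The expression of 10 circadian clock genes was examined in the livers of 37 adult F0 CD1 mice given vehicle or HFPO-DA, a short-chain perfluorinated ether acid, by oral gavage. The genes, Arntl, Clock, Npas2, Per1, Per2, Per3, Cry1, Cry2, Dbp and Nfil3, were taken by name from the probe table, in which they hold 14 of 30146 probes and 10 of 21450 gene symbols. Wild-type mice of both sexes were dosed once a day with vehicle (0 mg/kg, 5 males and 5 females) or with HFPO-DA at 0.1 mg/kg (5 males and 5 females), 0.5 mg/kg (5 males and 4 females) or 5 mg/kg (4 males and 4 females). Males had 84 to 85 doses, which began 70 days before mating, and females had 53 to 65 doses, from 14 days before mating to lactation day 20 or 21, and dosing began at a younger age in males than in females. Sex, age, length of dosing and lactation therefore cannot be told apart. The time of day at which each mouse was killed is not given in the sources used here, so its part in any difference between mice was not tested.

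The mammalian clock is a transcriptional loop that runs in nearly every cell. CLOCK or its relative NPAS2 pairs with ARNTL (also named BMAL1) and activates Per and Cry genes through E-box sequences, and the PER and CRY proteins then repress that activation. A second loop of ROR activators and REV-ERB repressors acts on Arntl and Nfil3 through ROR elements, while DBP activates and NFIL3 represses genes with a D-box, among them Per genes. In liver the loop is known for driving daily rhythms of metabolism, and Arntl and Dbp peak at opposite times of day.

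Regulatory sequence near the starts of these genes is shown because the stretches searched differed in which of these elements they matched. RefSeq windows of 300 bases, from 250 before to 50 after a transcription start (GRCm38.p6), were at hand for 9 of the 10 genes, in 13 windows. They were searched on both strands for the E-box CACGTG, the D-box TTATGTAA or TTACGTAA, and the core of the ROR element TAGGTCA or TGGGTCA. Of all 32544 distinct windows, 7.17% held this E-box, 1.05% this D-box and 6.48% this ROR core. The 4 windows printed here are those of the Per gene with a D-box, of Nfil3 and Arntl with a ROR core, and of Per1 with an E-box; matches are in capitals and each line runs 5′ to 3′ on the strand of its gene.

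Per3, chr4:151044616-151044915, minus strand: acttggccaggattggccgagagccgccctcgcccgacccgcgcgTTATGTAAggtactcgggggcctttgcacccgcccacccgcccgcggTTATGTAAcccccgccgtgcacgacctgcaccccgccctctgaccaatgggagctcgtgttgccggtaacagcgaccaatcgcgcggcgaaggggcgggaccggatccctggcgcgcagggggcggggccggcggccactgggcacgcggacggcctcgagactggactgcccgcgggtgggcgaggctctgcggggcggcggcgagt

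Nfil3, chr13:52980990-52981289, minus strand: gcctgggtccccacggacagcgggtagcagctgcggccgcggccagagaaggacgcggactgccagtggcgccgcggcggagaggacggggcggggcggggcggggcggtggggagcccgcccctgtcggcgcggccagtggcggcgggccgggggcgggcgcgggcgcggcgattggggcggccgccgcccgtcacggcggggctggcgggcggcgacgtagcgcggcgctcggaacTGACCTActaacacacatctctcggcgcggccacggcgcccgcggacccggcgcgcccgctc

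Arntl, chr7:113207261-113207560, plus strand: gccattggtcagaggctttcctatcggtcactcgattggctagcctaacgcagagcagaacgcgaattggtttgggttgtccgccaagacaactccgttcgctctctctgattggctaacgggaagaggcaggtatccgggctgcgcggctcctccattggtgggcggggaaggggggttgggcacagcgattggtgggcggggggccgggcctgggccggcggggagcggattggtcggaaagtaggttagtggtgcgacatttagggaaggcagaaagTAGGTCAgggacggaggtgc

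Per1, chr11:69098699-69098998, plus strand: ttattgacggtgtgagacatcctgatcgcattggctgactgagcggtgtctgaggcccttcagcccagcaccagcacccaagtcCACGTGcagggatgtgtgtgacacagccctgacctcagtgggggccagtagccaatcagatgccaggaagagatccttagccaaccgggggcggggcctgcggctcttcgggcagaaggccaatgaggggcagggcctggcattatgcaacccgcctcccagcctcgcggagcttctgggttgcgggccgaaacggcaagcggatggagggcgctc

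Per3 held 2 matches to the D-box in 1 window. In Nfil3 the ROR core lay on the strand opposite to the gene, and in Arntl on the strand of the gene, downstream of the start. The window of Cry1 (chr10:85185005-85185304, minus strand) also held the E-box. No match lay in the windows of Clock, Cry2, Dbp and Npas2, nor in a further window each of Per1 and Arntl. No window was at hand for Per2. Sequence outside these windows was not searched. A match is a description of the letters and was not tested for binding.

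Libraries held 2101495 to 10548222 counts in the 19 males and 7952605 to 13878254 in the 18 females. The 4 libraries under 5000000 counts were all from males, namely 0.1 mg/kg mouse 4, 0.5 mg/kg mouse 2, and 5 mg/kg mice 1 and 3. Levels are given as CPM, counts scaled to a common library size after TMM normalization. All 5 hepatocyte markers had counts in every group, with a summed level of 9407 to 20600 CPM per mouse. In scraped tissue, fewer cells of a type and less RNA per cell cannot be told apart. Of the 14 probes, 13 probes of 9 genes passed the filter on low counts, by which 18570 probes were tested. Npas2 did not pass, with 0 counts in 32 mice and at most 10 in any mouse. Female control mouse 3 stood apart from the other 17 females in several clock genes, and the values it moves most are given with and without it.

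**Figure D1:**
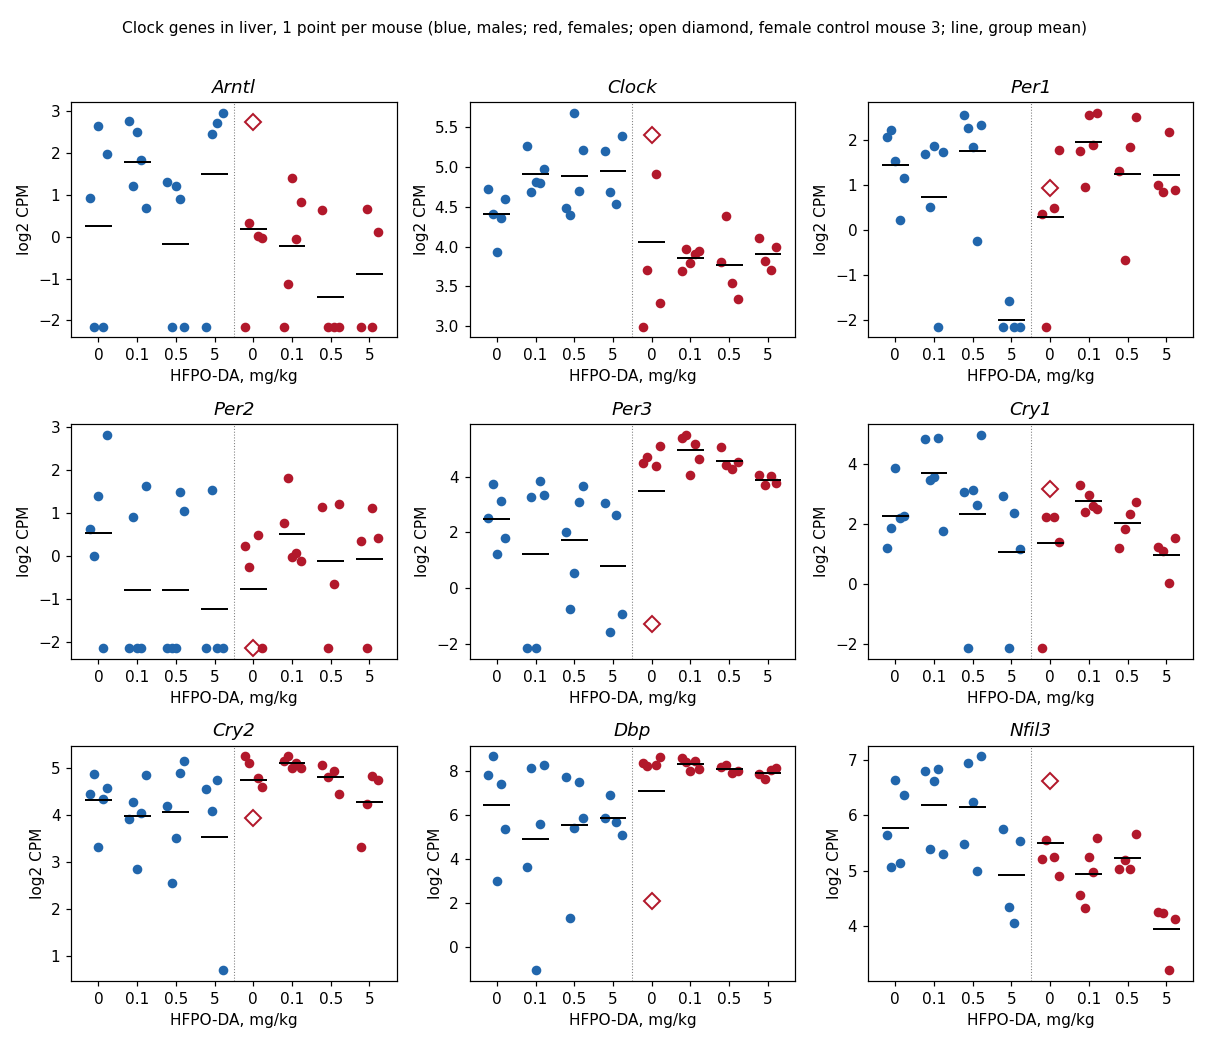
Level of 9 clock genes (log2 CPM, vertical axis) against dose of HFPO-DA in mg/kg (horizontal axis), with 1 point per mouse, males in blue, females in red, female control mouse 3 as an open diamond and a line at each group mean. Per1 lies near the bottom of its axis in all 4 males at 5 mg/kg. The group mean of Nfil3 is lowest in females at 5 mg/kg, and Dbp and Per3 spread widely in males. The lowest points of the Arntl, Per1, Per2, Per3 and Cry1 panels are mice with 0 counts.

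Per1 encodes a repressor of the clock that also responds quickly to hormonal signals (chr11:69095217-69109960, plus strand, GRCm38). It fell in males at 5 mg/kg. Its probe had 33, 34, 20, 7 and 14 counts in the 5 male controls, against 0, 1, 0 and 0 counts in the 4 males at 5 mg/kg. No treated male reached the lowest control, so the groups did not overlap, as was the case on the lower side for 4.8% of all probes. Males at 0.1 mg/kg had 26, 8, 27, 0 and 29 counts, and those at 0.5 mg/kg had 35, 12, 27, 6 and 31 counts. At both lower doses the values overlapped those of the controls.

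The pooled Per1 level in males at 5 mg/kg was 0.0157 of that in controls, from 1 against 108 counts, with an exact 95% interval of 0.000394 to 0.0894 that covers counting error only. The fitted log2 fold change was -5.70 (SE 1.35; adjusted p = 0.00406, edgeR quasi-likelihood test). It was the only one of the 13 probes called at this dose in males, where 12.7% of all probes tested were called at an adjusted p under 0.10 and 8.49% were called lower. Mice 1 and 3 of the treated group were among the shallow libraries, in which 3 counts correspond to 0.708 and 1.12 CPM, against 0.930 to 4.41 CPM in the controls. Without treated mouse 2, which had the single count, it was -7.66 (adjusted p = 0.00751), a size set by the model rather than by counts. Without the 4 shallow libraries it was -5.27 (adjusted p = 0.0307), and with all libraries thinned to the smallest total the Per1 probe did not pass the filter.

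In females Per1 was not called at any dose. The 5 female controls had 10, 0, 18, 12 and 38 counts, and the 4 females at 5 mg/kg had 15, 17, 49 and 19 counts. At 0.1 mg/kg the counts were 36, 22, 82, 38 and 67, and at 0.5 mg/kg they were 25, 4, 41 and 47. All of these groups overlapped the controls. The log2 fold change at 5 mg/kg was 0.69 (95% interval -1.16 to 2.54; adjusted p = 0.989, edgeR).

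The difference between the sexes in the Per1 response at 5 mg/kg was -6.39 on the log2 scale (SE 1.61; adjusted p = 0.0643, edgeR interaction). It was the only clock probe called for this interaction, for which 0.63% of all probes were called. The call was close to its threshold and was lost when any 1 of 5 mice was left out, with an adjusted p of 0.155 without female 5 mg/kg mouse 3, 0.105 without female control mouse 4, 0.108 without male 5 mg/kg mouse 1, 0.105 without male control mouse 2 and 0.122 without male 5 mg/kg mouse 3. Without the 4 shallow libraries it was -5.95 (adjusted p = 0.121).

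Nfil3 encodes the repressor that opposes DBP at D-boxes (chr13:52967209-52981073, minus strand, GRCm38). It fell in females at 5 mg/kg. The 5 female controls had 36.8, 46.8, 98.4, 38.1 and 29.8 CPM, and the 4 females at 5 mg/kg had 19.02, 18.7, 9.04 and 17.3 CPM. Every treated female lay below every control, as for 4.31% of all probes. The mean was 16.01 ± 4.71 CPM (SD, n = 4) against 49.97 ± 27.7 CPM (SD, n = 5). The log2 fold change was -1.64 (SE 0.42; adjusted p = 0.0147, edgeR). It was the only 1 of 13 clock probes called in females at this dose, at which 4.52% of all probes were called and 2.26% were called lower.

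The value of 98.4 CPM among the female controls was that of mouse 3. Without it the log2 fold change of Nfil3 was -1.25 (adjusted p = 0.0913), still past the threshold of 0.10. Leaving out each of the 9 mice in turn gave -1.78 to -1.25, with adjusted p from 0.0105 to 0.0986. At 0.1 mg/kg the females had 23.3, 19.9, 38, 31.5 and 48.2 CPM, and at 0.5 mg/kg they had 32.7, 36.4, 32.4 and 50.4 CPM. These groups overlapped the controls.

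In males Nfil3 was not called at any dose. Male controls had 49.7, 33.5, 99.9, 34.95 and 82.1 CPM, and males at 5 mg/kg had 53.8, 20.3, 16.5 and 46.4 CPM. The treated males included both the lowest values among males and values inside the control range. The log2 fold change was -0.81 (95% interval -1.63 to 0.02; adjusted p = 0.23, edgeR), and the interaction of sex and dose was 0.84 (95% interval -0.32 to 1.99; adjusted p = 0.679), so a difference between the sexes in Nfil3 was not shown. Without female control mouse 3 the interaction was 0.44 (adjusted p = 0.929).

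**Figure D2:**
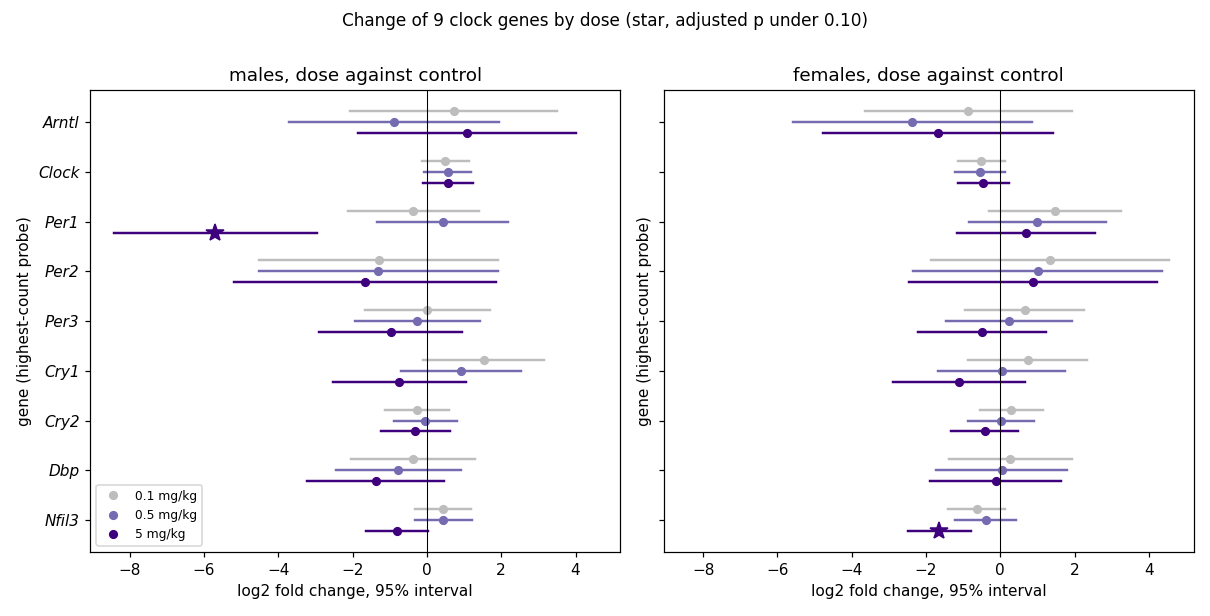
Log2 fold change of 9 clock genes against the control of the same sex (horizontal axis), with a point and 95% interval for each of 3 doses and a star where the adjusted p was under 0.10. The stars mark Per1 in males at 5 mg/kg (-5.70) and Nfil3 in females at 5 mg/kg (-1.64), and every other interval spans 0.

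At 0.1 and 0.5 mg/kg no clock probe was called in either sex. The share of all probes tested that was called was 0% for each sex at 0.1 mg/kg, 0.625% for males at 0.5 mg/kg and 0.113% for females at 0.5 mg/kg. The unadjusted p of the edgeR test was under 0.05 for 0 of the 9 genes in each of these 4 comparisons, beside 7.14% (males, 0.1 mg/kg), 10.3% (males, 0.5 mg/kg), 2.38% (females, 0.1 mg/kg) and 4.33% (females, 0.5 mg/kg) of all probes, and DESeq2 called 0 probes as well. Between male and female controls no clock probe was called either (0 calls against 2.6% of all probes, 0 of 9 genes with an unadjusted p under 0.05 against 10.9%, 0 calls by DESeq2). The interactions at 0.1 and 0.5 mg/kg gave 0 calls by edgeR and by DESeq2, where 0% and 0.0108% of all probes were called, and 1 gene in each, Clock, had an unadjusted p under 0.05, beside 4.46% and 5.13% of all probes.

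Over the 9 genes, the log2 fold changes of males at 5 mg/kg had their median at -0.81, with 7 genes below 0 and 2 above. Over all probes the median was -0.12, with 43.6% above 0. Females given that dose had a median of -0.46, also with 7 genes below 0 and 2 above. Over all probes it was -0.01, with 49.1% above 0. Several of the 9 genes varied together from mouse to mouse, so they are not separate observations. The intervals of most genes were wide. For Dbp in males at 5 mg/kg, for instance, the log2 fold change was -1.38 with a 95% interval of -3.22 to 0.46.

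Mice of the same group differed widely in several of these genes, among them Dbp. Dbp encodes a D-box activator that is a direct target of CLOCK and ARNTL (chr7:45705088-45710203, plus strand, GRCm38). Its highest-count probe read 223, 404, 7.76, 171 and 40.2 CPM in male controls. Males at 0.1 mg/kg had 12.2, 282, 0.254, 48.1 and 310.1 CPM. Those at 0.5 mg/kg had 209.8, 2.26, 41.4, 182 and 58.4 CPM, and those at 5 mg/kg had 56.8, 118, 50.3 and 33.8 CPM. The highest mouse exceeded the lowest 52.1 times in controls, 92.7 times at 0.5 mg/kg and 3.49 times at 5 mg/kg, and the lowest value at 0.1 mg/kg rested on 2 counts.

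Apart from control mouse 3, the females were tight by comparison. Controls had 322, 296, 4.03, 307 and 393 CPM, and the other 3 groups lay between 194.8 and 383 CPM. Only mouse 3 of the controls was low. The SD of log2 CPM within groups was 2.69 in males, 1.51 in all 18 females and 0.216 in the 17 females without control mouse 3. The ratio of male to female SD was 1.78 with all females. It ranked 3041 among 7148 probes of at least 10 CPM, for which the median ratio was 1.65. Without that mouse, a choice made after its values were seen, the ratio was 12.5, the highest of the 7148, with a median of 1.68. The mouse left out was the extreme female for Dbp, which need not hold for other probes, so this rank is not a fair comparison.

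Dbp was measured by 3 probes, which tracked one another from mouse to mouse. The deviations of the other probes from their group means had a Pearson's r of 0.973 and 0.957 with those of the first over 37 mice, and 0.709 and 0.802 over the 17 females. In female control mouse 3 the 3 probes read 4.03, 1.78 and 0.375 CPM. The low values were thus shared by the probes of the gene.

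**Figure D3:**
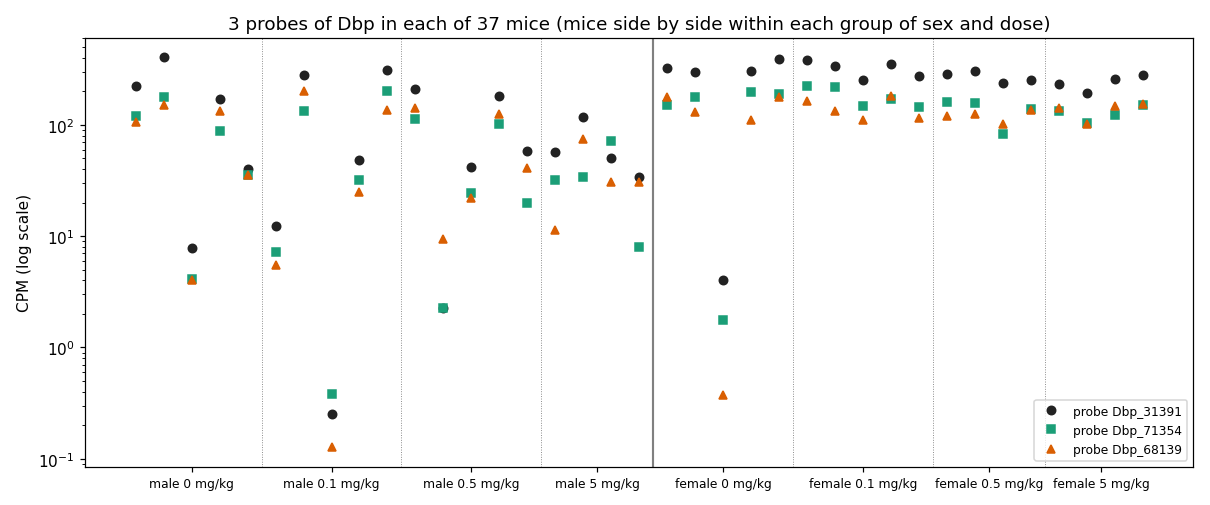
CPM of the 3 probes of Dbp (log axis) in each of 37 mice, set side by side within groups of sex and dose. The probes rise and fall together, over a range of 0.254 to 404 CPM in males for the highest-count probe, while the females stay near 195 to 393 CPM apart from control mouse 3 at 4.03 CPM.

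The spread of Dbp was large for its abundance. Its biological coefficient of variation was 0.888, against a median of 0.209 in the 500 probes nearest to it in abundance, at percentile 99.8. For Per3 the coefficient was 0.917 (percentile 99.2), for Cry1 0.825 (96.4), for Nfil3 0.419 (94.2) and for Cry2 0.459 (92.6). Clock, at 0.35, lay at percentile 64.4, and Per1, at 0.808, at percentile 7.2 among probes as sparse as its own.

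Per3 encodes a PER protein with a lesser role in the core loop (chr4:151003652-151044665, minus strand, GRCm38). Its values also differed widely within male groups. Male controls had 5.52, 12.97, 2.14, 8.51 and 3.27 CPM, and males at 0.1 mg/kg had 0, 9.35, 0, 14.1 and 9.89 CPM. Males at 0.5 mg/kg had 3.87, 0.377, 1.23, 8.21 and 12.6 CPM, and those at 5 mg/kg had 8.02, 0.110, 6.00 and 0.309 CPM. In the last group mice 1 and 3 lay in the control range and mice 2 and 4 below it.

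For Per3 in males at 5 mg/kg the log2 fold change was -0.97 (95% interval -2.90 to 0.95; adjusted p = 0.614, edgeR). The mice in the control range were those with shallow libraries. Without the 4 shallow libraries, which leaves males 2 and 4 at this dose, it was -5.00 (adjusted p = 0.0445). Other normalizations, filters and models that kept all mice gave -0.97 to -0.69.

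Female controls had 22.1, 26.1, 0.187, 20.8 and 34.1 CPM of Per3, with the low value again in mouse 3. The 3 dosed groups lay between 12.8 and 45.2 CPM, with no value near that of mouse 3. Male less female controls gave -1.67 on the log2 scale (95% interval -3.34 to 0.01; adjusted p = 0.462, edgeR), which did not pass the test, and -1.96 without mouse 3 (adjusted p = 0.274).

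Deviations from the group mean of Per3 had a Pearson's r of 0.693 with those of Dbp in the 19 males. In females r was 0.98 with all 18 and 0.709 without control mouse 3. Nfil3 deviated the other way, with r = -0.679 in males, -0.693 in 18 females and -0.597 in 17. Cry2, a repressor partner of the PER proteins, had r = 0.586 in males and 0.199 in the 17 females. These correlations are given as a description of mice that share a tissue, an assay and a normalization.

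**Figure D4:**
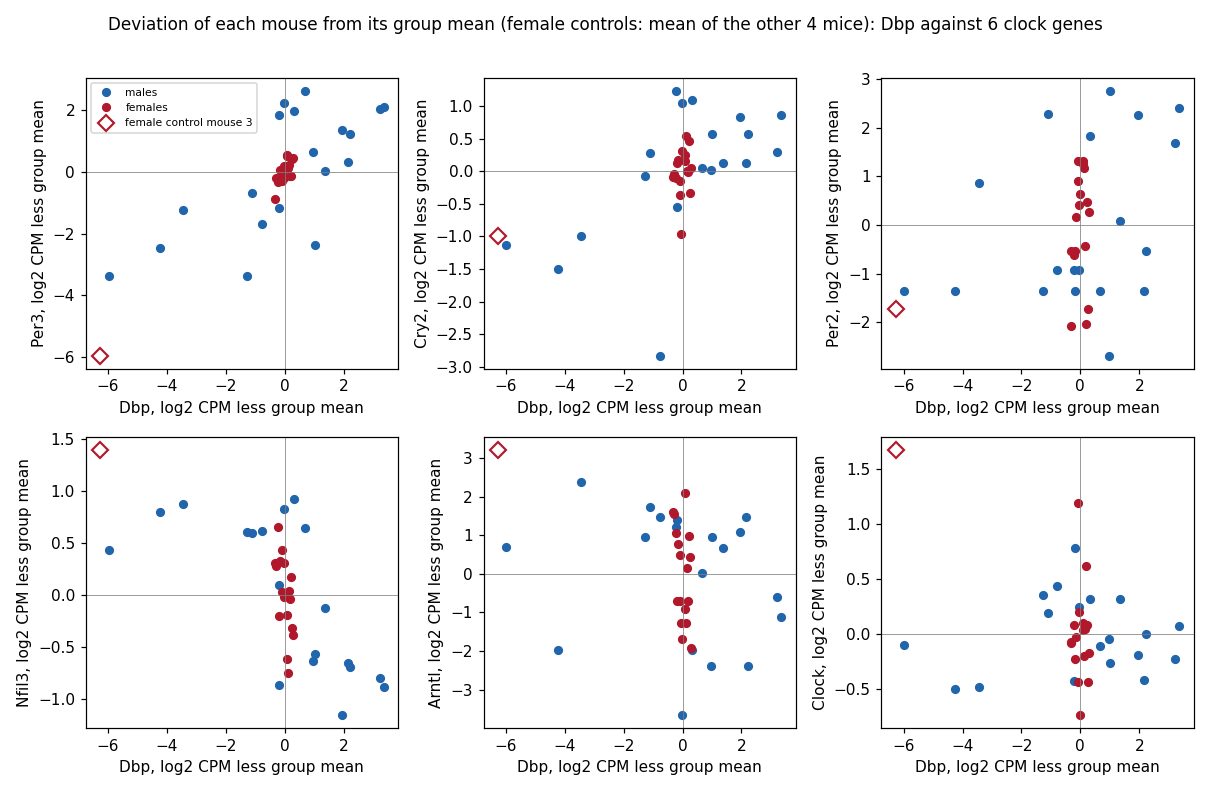
Deviation of each mouse from its group mean in Dbp (horizontal axis, log2 CPM) against that in 6 other clock genes (vertical axes, log2 CPM), with males in blue, females in red and female control mouse 3 as an open diamond; for female controls the mean is that of the other 4 mice. Per3 rises with Dbp (r = 0.693 in males), and Nfil3 falls as Dbp rises (r = -0.679 in males). Control mouse 3 lies at the low end of Dbp and Per3 and the high end of Nfil3, Arntl and Clock. In Cry2 it lies below the mean of the other controls, and some males lie lower.

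Arntl encodes the common partner of CLOCK and NPAS2 (chr7:113207465-113314126, plus strand, GRCm38). Its probe was sparse, with 0 counts in 12 mice and at most 69 counts, the latter in female control mouse 3. The other female controls had 0, 10, 8 and 9 counts, and male controls had 14, 0, 45, 0 and 26 counts. Males at 5 mg/kg had 0, 48, 17 and 49 counts and females at 5 mg/kg had 0, 15, 0 and 10 counts. Each of these groups contained mice at 0 and mice with counts. For 5 mg/kg the fit gave a log2 fold change of 1.08 (SE 1.46) in males and of -1.67 (SE 1.53) in females, neither past the test (adjusted p = 0.743 and 0.894, edgeR). Without female control mouse 3 the female value was -0.20 (adjusted p = 1).

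Because Arntl is known to peak at a different time from Dbp and Per3, its within-group deviations were correlated with theirs in each sex. Arntl with Dbp had a Pearson's r of -0.2 (permutation p = 0.347; Spearman's rho -0.319, p = 0.166) in 19 males and -0.539 (p = 0.0199; rho -0.47, p = 0.052) in 18 females. Arntl with Per3 had r = -0.433 (permutation p = 0.0381; rho -0.424, p = 0.0245) in males and -0.548 (p = 0.0444; rho -0.439, p = 0.0703) in females. All 4 were negative, and none passed 0.05 after Benjamini-Hochberg adjustment over the 4 relations, with 0.347 for the first and 0.0592 for the other three. Without the 2 mice farthest from the median of Arntl, r was -0.162, -0.51, -0.289 and -0.591 in the same order, with a permutation p of 0.549, 0.0912, 0.171 and 0.0531. Without female control mouse 3 the female values were -0.371 with Dbp and -0.286 with Per3. The relation of Npas2 with Dbp was not run because Npas2 did not pass the filter.

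Clock encodes the partner of ARNTL in the activating dimer (chr5:76209868-76304792, minus strand, GRCm38). Its level was 26.2, 21.02, 14.98, 20.3 and 24.01 CPM in male controls and 36.6, 25.6, 22.9 and 41.7 CPM in males at 5 mg/kg. Female controls had 7.75, 12.8, 41.9, 29.9 and 9.58 CPM, the highest in mouse 3, and females at 5 mg/kg had 17.04, 13.95, 12.8 and 15.7 CPM. The ranges overlapped in both sexes. Clock had log2 fold changes of 0.50, 0.56 and 0.58 in males and -0.51, -0.55 and -0.46 in females in order of dose, with none called. The interactions were 1.003, 1.104 and 1.031 (adjusted p = 1, 0.891 and 0.428, edgeR), and so did not pass the test. The female changes rest largely on female control mouse 3, which also enters the interactions but not the male changes. Without it the female changes of Clock were -0.06, -0.08 and -0.02, and the interactions were 0.57, 0.65 and 0.58 (adjusted p = 1, 1 and 0.757).

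Cry1 and Cry2 encode the cryptochromes, the main repressors of CLOCK and ARNTL. Cry1 was read by 3 probes (chr10:85131700-85185064, minus strand, GRCm38), of which the highest ranged from 0 to 31.2 CPM in males and 0 to 9.66 CPM in females, the next from 0 to 21.7 and 0.467 to 7.42 CPM, and the last had 0 counts in 20 mice. Cry2 (chr2:92403646-92434043, minus strand, GRCm38) ranged from 1.39 to 35.3 CPM in males and 9.69 to 37.9 CPM in females. The lowest Cry2 value was that of male 5 mg/kg mouse 4. Per2 (chr1:91415982-91459324, minus strand, GRCm38), a core repressor, had 0 counts in 14 mice and at most 48 counts. None of these 5 probes was called in the comparisons of doses, of controls or of sexes, and the largest shift of the highest-count Cry1 probe was 1.53 (95% interval -0.10 to 3.16; adjusted p = 0.76, edgeR) in males at 0.1 mg/kg.

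Genes around the core loop were read from a list of 32 on the panel, of which 30 passed the filter with 48 probes. In males at 5 mg/kg 7 probes of 6 genes were lower and 0 higher, beside 8.49% lower and 4.21% higher among all probes. Bhlhe40, a repressor of clock activation, had a mean of 48.8 ± 10.0 CPM (SD, n = 4) against 127 ± 50.8 CPM (SD, n = 5) in controls, a log2 fold change of -1.38 (adjusted p = 0.00331, edgeR). These values are those of its more abundant probe, and the other probe of Bhlhe40 was not called. Ciart, a further repressor, had 0.375 to 8.16 CPM in treated males and 8.43 to 98.2 CPM in controls, with a log2 fold change of -3.15 (adjusted p = 0.0483).

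Among rhythmic outputs, both probes of Tsc22d3, a glucocorticoid-induced gene, were lower in males at 5 mg/kg, by -1.62 (adjusted p = 0.000966, edgeR) and -1.99 (adjusted p = 0.00731). Alas1, the first enzyme of heme synthesis, had 1 of 3 probes lower in these males (-0.98, adjusted p = 0.0752). Fbxl21, a ligase of the cryptochromes, was called on very few counts, with 0 in all 4 treated males and 3 to 39 in controls (adjusted p = 0.0824), and it also had 0 counts in all 4 females at 5 mg/kg.

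In females at 5 mg/kg 1 probe of the 48 was higher and 0 lower, beside 2.26% in each direction among all probes. It was the same Alas1 probe that was lower in males, with 68.7 ± 24.7 CPM (SD, n = 4) against 28.1 ± 15.3 CPM (SD, n = 5) and a log2 fold change of 1.29 (adjusted p = 0.0177, edgeR). Females at 0.1 mg/kg had 66.2 ± 6.0 CPM (SD, n = 5) of this probe. Those at 0.5 mg/kg had 50.8 ± 11.1 CPM (SD, n = 4), and neither dose was called. The mean at 5 mg/kg was thus close to that at 0.1 mg/kg. At 5 mg/kg the difference between the sexes was -2.27 for this probe (adjusted p = 0.0165) and -2.38 for another (adjusted p = 0.0874). It was -1.15 for the last, which did not pass (adjusted p = 0.788). At 0.1 and 0.5 mg/kg, between the controls and in the interactions at those doses, 0 of the 48 probes were called by edgeR.

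The probes most like Dbp over the 37 mice were sought among 7145 probes of other genes with a mean of at least 10 CPM, by Pearson's r of deviations from the group mean. The 5 highest were Bhlhe40 (0.777 and 0.736, 2 probes), Ciart (0.769), Per3 (0.765) and Ugt1a8 (0.762). Bhlhe40, Ciart and Per3 are on the lists of clock genes, which were chosen with earlier results of these data known. Among the lowest were Clpx (-0.744 and -0.731, 2 probes), a mitochondrial chaperone, Tubb2a (-0.733), a tubulin, and Rnf125 (-0.708). In males alone r was -0.809 for Tubb2a and 0.797 for the first Bhlhe40 probe. In the 17 females without control mouse 3, in which Dbp itself varied little, the same pairs had r of -0.489 and 0.0537. Per3 kept 0.709. The 2 Clpx probes had -0.286 and -0.13 in these females, Ciart 0.354, Ugt1a8 0.249 and the other Bhlhe40 probe 0.00234. Rnf125 changed sign, from -0.835 in males to 0.392 in these females.

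The same search for Arntl gave weaker values. The highest were Med8 (0.655), Cct3 (0.606), Wipf2 (0.604), Nbas (0.603) and Krt8 (0.599), and the lowest were Irak2 (-0.608), Pigw (-0.601), Sult2a2 (-0.592), Lmbrd1 (-0.585) and Ppm1a (-0.579). None of the 10 is on the list of clock genes. With 0 counts of Arntl in 12 of 37 mice, these correlations rest on a sparse measure.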

How the data were processed

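Sections of formalin-fixed, paraffin-embedded liver were scraped from slides and assayed by TempO-Seq, in which paired probes are ligated on their target transcript, amplified and sequenced. The submitters' processing notes name bcl2fastq 2.17.1.14 and Bowtie. The authors deposited raw counts per probe, without normalization, for the 37 mice used here; the position of a probe in its transcript and the genome build are not given in the sources used here. The labels gave the sex and dose of each mouse, and mouse numbers follow the order of the records and pair nothing. Separate mice were the replicates, and no pair of mice had identical counts. Counts of Ddx3y, on the Y chromosome, were 31 to 623 in males and at most 2 in females.

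The counts entered edgeR 4.0.16 (R 4.3.3). A filter on low counts (filterByExpr, 8 groups, minimum count 10) and TMM normalization were applied, and probes were fitted with a quasi-likelihood model with 1 mean per group over all 37 mice. Contrasts set each dose against vehicle within a sex, male against female controls, and the dose effects of the sexes against each other (interaction). Benjamini-Hochberg adjustment covered all 18570 probes tested, with a threshold of 0.10. Log2 CPM used a prior count of 2. Correlations used deviations from group means, with two-sided p from 100000 permutations within groups (Python 3.11.15, numpy 2.4.6); without female control mouse 3 the group means were taken anew. The script was tested on simulated data. The probe with the highest total count of each gene is described in full and the others by range; other clock genes were named where called, and the 5 highest and 5 lowest correlates of Dbp and of Arntl were named, except that results of some single genes are left out here, though they stay in the counts. Alternatives were DESeq2 1.42.0 and its size factors, other filters, a robust fit, each sex apart, summed probes, thinned libraries, omission of single mice, and 0.05 as the threshold; leaving out the 4 mice under 5000000 counts was added after seeing the data. The genes and lists were chosen with earlier results of these data known. Coordinates are from GENCODE M21 (GRCm38) and promoter sequences from RefSeq (GRCm38.p6). Intervals on counts cover counting error only, since reads are not independent molecules.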

Additional observations from a re-analysis of the deposited data

Results flagged for a closer look

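Among 72 combinations of 9 genes and 8 groups, 9 had a mouse whose gap to the next value was large for its group. The rule flags about 1 in 20 for normally distributed values, which sparse counts are not. A group with counts in only 1 mouse is always flagged, so the number expected by chance here is not known. Of the 9 flagged, 3 were in female controls, and all 3 were mouse 3. That mouse had Dbp at 4.03 CPM (the others 296 to 393), Nfil3 at 98.4 CPM (29.8 to 46.8) and Arntl at 6.46 CPM (0 to 1.02).

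In males, Cry1 read 14.3 CPM in control mouse 3 (the others 2.04 to 4.55) and 31.2 CPM in mouse 5 at 0.5 mg/kg (0 to 8.51). At 5 mg/kg, mouse 2 was the only male with counts of Per1 (0.110 CPM) and of Per2 (2.65 CPM). In females, Arntl read 1.34 CPM in mouse 1 at 0.5 mg/kg and 0 in the others, and Per1 read 4.30 CPM in mouse 3 at 5 mg/kg (1.55 to 1.75).

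The sexes differed in the Per1 response at 5 mg/kg by -6.39 on the log2 scale (adjusted p = 0.0643, edgeR interaction); the counts were 0 or 1 in these males and 15 to 49 in these females.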

How the results depend on the processing

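The fall of Per1 in males at 5 mg/kg was called under every alternative in which its probe was tested, with log2 fold changes of -7.66 to -5.27, and that of Nfil3 in females at 5 mg/kg under every alternative, with -1.78 to -1.25. The count of clock probes called in males at 5 mg/kg, 1 as reported, was 0 with libraries thinned to the smallest total, where Per1 did not pass the filter, and 2 without the 4 mice under 5000000 counts, where Per3 was added. For the interaction at 5 mg/kg the count was 1, and 0 with a threshold of 0.05, with thinned libraries and without those 4 mice, and 0 to 1 on leaving out each mouse; the cause was not tested beyond the fewer counts or mice of these fits.

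Of the correlations, Arntl with Dbp in females (-0.539) was -0.47 by Spearman's rho, -0.51 without the 2 farthest mice and -0.426 with a prior count of 0.5, no longer past an unadjusted 0.05, and -0.604 to -0.371 on leaving out each mouse. In males (-0.2) leaving out each mouse gave -0.396 to -0.077, the former without 0.5 mg/kg mouse 2. Arntl with Per3 in males (-0.433) was -0.289 without the 2 mice and -0.353 with the lower prior count, and -0.586 to -0.331 on leaving out each mouse, with 13 of 19 not past 0.05. In females (-0.548) it was -0.439 by rho, -0.591 without the 2 mice, -0.427 with the lower prior count and -0.583 with thinned libraries, and -0.657 to -0.286 on leaving out each mouse, with 11 of 18 not past 0.05. No direction of a called value reversed. Depth limits several probes, with 3 counts or fewer of Npas2 in 34, of 1 Cry1 probe in 23, of Per2 in 14, of Arntl in 13 and of Per1 and Per3 in 6 each of 37 mice. No paired analysis was possible because the labels carry no replicate numbers shared between groups.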
